A study of Mus musculus with 2 samples.

Results

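The 10 genes described here encode the 4 stathmins and 6 other proteins of the growth cone, the motile tip of a growing axon, in the midbrain of newborn mice. They are Stmn1, Stmn2, Stmn3, Stmn4, Gap43, Basp1, Marcks, Marcksl1, Crmp1 and Dpysl3. They were chosen by name, and their rows were found by matching gene identifiers to these symbols. Each of the 10 had 1 row among 43346 mouse genes, of which 14605 had at least 1 count in either library. The material was whole midbrain from 2 B6NCrl pups, a C57BL/6N laboratory strain, at postnatal day 0, with no treatment or genetic change named in the labels. The library of pup 1 was replicate 1 and that of pup 3 was replicate 2, and together they form 1 group. Each was amplified with a SMART-type protocol from 13 pg of mirVana-extracted total RNA, which the labels equate with 1 cell, with small RNA left out and spike-in RNA added. The assay is called single-cell RNA-seq in the labels although it used tissue RNA. Sex was not collected, and both pups carry 1 donor record.

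Stathmins bind tubulin dimers and promote the disassembly of microtubules, and phosphorylation by several kinases releases the tubulin. Stmn1 is cytosolic, whereas Stmn2, Stmn3 and Stmn4 are neuronal proteins held on membranes of the Golgi and growth cone by palmitoylation. Gap43, Basp1, Marcks and Marcksl1 are acidic proteins on the inner face of the plasma membrane that bind calmodulin or phosphoinositides and are substrates of protein kinase C. Crmp1 and Dpysl3 are collapsin response mediators, cytosolic proteins that bind tubulin and take part in the growth cone's response to semaphorin 3A.

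The coding starts below are shown because they hold the residues that anchor these proteins to membranes. They were read from GENCODE M21 transcripts of the leading isoform on GRCm38. For the 4 stathmins, the first 30 codons are given with cysteine codons in capitals. Stmn1 has no cysteine codon in its whole coding sequence, Stmn2 and Stmn3 have a pair at codons 22 and 24, and Stmn4 has a pair at codons 20 and 22. These stretches lie within chr4:134470163-134470743 (plus strand), chr3:8509612-8541911 (plus), chr2:181309172-181314212 (minus) and chr14:66354433-66355662 (plus), introns removed.
Stmn1: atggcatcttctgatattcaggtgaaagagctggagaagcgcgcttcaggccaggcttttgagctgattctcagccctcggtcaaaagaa
Stmn2: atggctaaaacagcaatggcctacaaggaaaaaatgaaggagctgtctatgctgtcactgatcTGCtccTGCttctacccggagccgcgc
Stmn3: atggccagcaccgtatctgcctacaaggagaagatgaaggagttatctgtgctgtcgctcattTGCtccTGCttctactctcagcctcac
Stmn4: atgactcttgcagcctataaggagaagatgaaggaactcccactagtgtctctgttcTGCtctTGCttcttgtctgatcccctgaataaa
For Gap43, the first 20 codons hold cysteine codons 3 and 4, the palmitoylated pair, in capitals (within chr16:42292337-42340502, minus strand, introns removed).
Gap43: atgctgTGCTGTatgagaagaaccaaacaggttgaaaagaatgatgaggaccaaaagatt
The first 10 codons of the 3 myristoylated proteins are given with the glycine codon that receives the fatty acid in capitals. They lie at chr15:25364880-25364909 (minus strand), chr10:37138506-37138535 (minus) and chr4:129513830-129513859 (plus).
Basp1: atgGGAggcaagctgagcaagaagaagaag
Marcks: atgGGTgcccagttctccaagaccgcagcg
Marcksl1: atgGGCagccagagctctaaggctccccgg

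Marcks and Marcksl1 also share a basic stretch, the effector domain, that binds calmodulin and is phosphorylated on serines by protein kinase C. It is shown as a feature common to both genes. In an alignment of their coding sequences, 47.0% of columns were identical, with gaps counted as columns. The sequences differ in length, at 930 bases for Marcks and 603 for Marcksl1, which lowers that share. The window of 25 codons with most lysine and arginine codons was found by counting, at codons 145 to 169 of Marcks (chr10:37136531-37136605, minus strand) and codons 86 to 110 of Marcksl1 (chr4:129514885-129514959, plus strand). It held 13 such codons in Marcks and 12 in Marcksl1. Serine codons are in capitals.
Marcks: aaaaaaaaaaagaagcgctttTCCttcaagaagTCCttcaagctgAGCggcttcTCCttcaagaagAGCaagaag
Marcksl1: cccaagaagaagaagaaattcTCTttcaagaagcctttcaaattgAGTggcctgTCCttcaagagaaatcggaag

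RefSeq (GRCm38.p6) gives Crmp1 2 start sites on the plus strand of chromosome 5, and the 150 bases before each are shown. They are shown because transcripts that begin at or near them were used very unequally. The upstream RefSeq start is at 37242058 and the downstream one at 37245764. GENCODE M21 begins the gene at 37241940, inside the upstream window, so part of that window lies within the gene as annotated there. GGGCGG and its reverse CCGCCC, the letters of a GC box, are in capitals, and matches may overlap.
Upstream, chr5:37241908-37242057: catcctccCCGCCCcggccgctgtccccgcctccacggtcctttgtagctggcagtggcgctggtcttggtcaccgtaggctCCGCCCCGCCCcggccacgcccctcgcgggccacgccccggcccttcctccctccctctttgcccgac
Downstream, chr5:37245614-37245763: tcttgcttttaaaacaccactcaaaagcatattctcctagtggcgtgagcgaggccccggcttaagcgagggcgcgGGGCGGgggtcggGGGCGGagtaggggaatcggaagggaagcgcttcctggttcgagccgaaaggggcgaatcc
The upstream window held 3 matches and 16 CG dinucleotides, and the downstream window 2 matches and 14, against a median of 4 CG over 32851 promoter windows of 150 bases. At least 1 GGGCGG match on either strand occurred in 28.6% of those windows. Neither Crmp1 window held TATAAA or CACGTG, which occurred in 7.57% and 4.30% of all windows, both strands searched. The window of Basp1 held 4 GGGCGG matches and 22 CG, and those of Stmn3 and Marcksl1 held no such match, with 2 and 7 CG. Windows of the other members are not reported here.

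The libraries held 26037002 expected counts in pup 1 and 32408655 in pup 3 over mouse genes. Spike-in RNA took 2.05% of counts in pup 1 and 2.21% in pup 3. At a TPM of 1 or more (counts divided by transcript length and scaled to a common total), 10166 genes were detected in pup 1 and 9367 in pup 3. All 8 neuronal markers were detected in both pups. Their summed level was 7103 TPM in pup 1 and 3006 TPM in pup 3, and without Tubb3, the neuronal beta tubulin, it was 1176 and 1212 TPM. Of 8 midbrain region markers, 4 were detected in both pups, and they went both ways. By counts, 2 of the 8 were over 2-fold higher in pup 1, among them Otx2 (1437 counts in pup 1 and 20 in pup 3). Another 4 were so in pup 3, among them Pax7 (13 and 886). The 6 hindbrain and spinal cord Hox genes were at 0 in both. The endothelial marker Tek was at 0 in both too, so Hox counts of 0 alone do not show the region. Markers of other cells were present too, at a summed 3022 TPM in pup 1 and 4115 TPM in pup 3 for meningeal fibroblasts (8 of 8 in both) and 1703 and 2891 TPM for erythroid cells (4 of 6). Those of radial glia and astrocytes (7 of 8, Gfap at 0) summed to 2340 TPM in pup 1 and 2700 TPM in pup 3, and without Fabp7, a fatty acid binding protein, the sum turned to 954 TPM in pup 1 and 646 TPM in pup 3. With a single library from each pup, no difference between them has a replicate behind it, and a two-sided exact test over 2 pups cannot give less than p = 0.5, so none was run. Intervals of ratios are exact 95% intervals that cover counting error only, since amplified reads without molecular identifiers are not independent molecules.

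All 10 genes were detected in both pups, and together they took 13607 TPM in pup 1 and 15554 TPM in pup 3. These sums were 1.43% and 1.63% of the TPM of mouse genes. In counts, which weigh long transcripts more, the shares were 1.18% in pup 1 and 1.58% in pup 3. The stathmins made up most of this, with 9366 TPM in pup 1 and 10898 TPM in pup 3. Because tissue RNA was measured, fewer cells of a type and less RNA per cell cannot be told apart. Nor can either be told apart from uneven sampling or amplification of 13 pg of RNA, with 1 library from each pup.

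**Figure D1:**
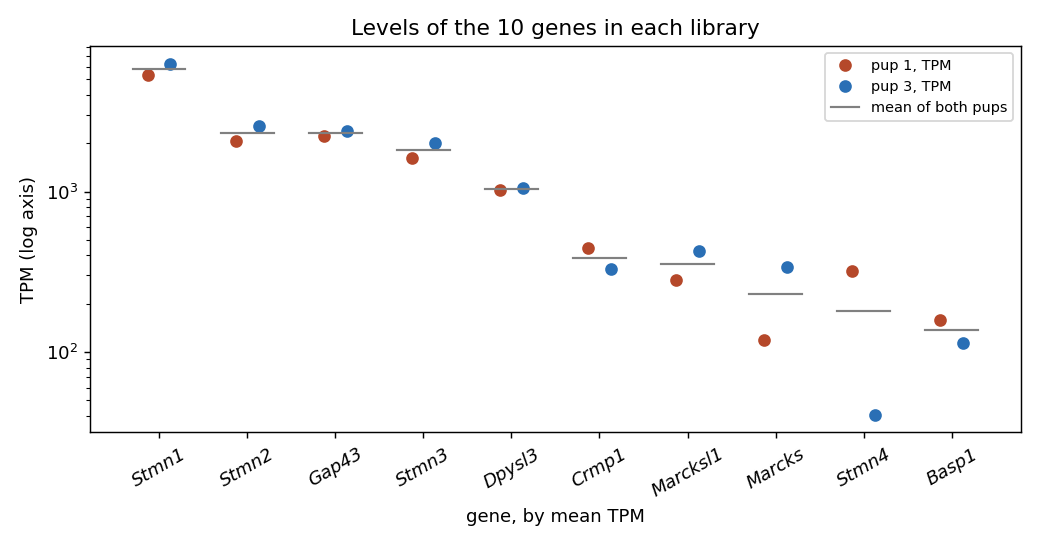
TPM of the 10 genes (log axis) in pup 1 and pup 3, ordered by the mean of both pups, which is drawn as a line; each dot is 1 library. The genes span 136 to 5824 TPM in mean, Stmn4 and Marcks have the widest gaps between their dots, and Dpysl3 the narrowest.

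Stmn1 was the highest of the 10, at 5358 TPM in pup 1 and 6290 TPM in pup 3, a mean of 5824 ± 659 (SD, n = 2). It ranked 9 among all mouse genes by mean TPM and 7 among protein-coding genes. The gene (ENSMUSG00000028832.7) lies at chr4:134468320-134473843 on the plus strand. Of its 5 transcripts, ENSMUST00000030636.6 took 99.19% of its abundance in pup 1 and 98.92% in pup 3. The processed pseudogene Gm11223 is 99.8% identical to it over 450 bases and was given 194 counts in pup 1 and 402 in pup 3, against 83682 and 137271 for Stmn1. Reads of the coding part of Stmn1 could match either, and Stmn1 was the only member whose deposited posterior SD of the count was above 0, at 16.0 in pup 1 and 22.9 in pup 3.

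Stmn2 and Stmn3 followed within the family. Stmn2 was at 2056 TPM in pup 1 and 2565 TPM in pup 3, a mean of 2311 ± 360 (SD, n = 2), and ranked 38 among all mouse genes. Stmn3 was at 1631 TPM in pup 1 and 2002 TPM in pup 3, a mean of 1817 ± 262 (SD, n = 2), and ranked 47. Both lay somewhat below their pup 3 level in pup 1, as Stmn1 did. The count ratio of pup 1 over pup 3, each library scaled by its total over mouse genes, was 0.759 for Stmn1 (0.752 to 0.765), 0.719 for Stmn2 (0.712 to 0.727) and 0.726 for Stmn3 (0.715 to 0.736). These 3 ratios lie close to one another, and none reached 2-fold.

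Stmn4 stood apart from its relatives. It was at 321 TPM in pup 1 and 40.5 TPM in pup 3, a mean of 181 ± 198 (SD, n = 2), from 6261 and 1099 counts. Its rank among mouse genes was 487 in pup 1 and 3882 in pup 3. The count ratio of pup 1 over pup 3 was 7.09 (6.65 to 7.57), the only one of the 10 whose whole interval lay beyond 4-fold. Among genes with a count, 41.0% passed that rule, and among the 1215 genes whose mean TPM lay in the members' range of 136 to 5824, 2.88% did. The summed neuronal markers were also higher in pup 1, at 7103 TPM against 3006 TPM in pup 3, but were 1176 and 1212 TPM without Tubb3, and 1 of 8 was over 2-fold higher in pup 1. Their part in the Stmn4 difference was not tested.

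Within the family, the proportions of the 3 higher stathmins were alike in both pups. Stmn1 took 57.2% of the summed stathmin TPM in pup 1 and 57.7% in pup 3. Stmn2 took 22.0% and 23.5%, and Stmn3 17.4% and 18.4%. Stmn4 took 3.43% in pup 1 and 0.372% in pup 3. The log2 TPM ratio of Stmn1 over Stmn2 was 1.38 in pup 1 and 1.29 in pup 3, and that of Stmn2 over Stmn3 was 0.33 in pup 1 and 0.36 in pup 3. The pair means were 1.34 ± 0.06 and 0.35 ± 0.02 (SD, n = 2). The ratio of Stmn1 over Stmn4 spread far more, at 4.06 in pup 1 and 7.28 in pup 3.

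The stathmin sequences differ in how alike they are. Stmn1 is the shortest, at 149 residues, against 179 for Stmn2, 180 for Stmn3 and 189 for Stmn4, which carry the extension with the cysteine pair. Of the columns in an alignment of coding bases, gaps included, 73.5% were identical between Stmn2 and Stmn3. That was the highest share among the stathmin pairs. Per length in TPM, this pair was also nearest in level within the family. In expected counts, not per length, Stmn1 and Stmn2 were the nearer pair, with a mean log2 ratio of 0.41 against 1.16 for Stmn2 over Stmn3. Stmn2 and Stmn4 shared 65.7% of columns, Stmn3 and Stmn4 64.1%, and Stmn1 shared 54.5% to 57.8% with the other 3. The shorter Stmn1 leaves gaps in its alignments, which lower its shares. These shares therefore do not rank likeness over the aligned bases alone. Stmn2 (ENSMUSG00000027500.10) lies at chr3:8509360-8561606 on the plus strand, Stmn3 (ENSMUSG00000027581.12) at chr2:181306459-181314500 on the minus strand and Stmn4 (ENSMUSG00000022044.10) at chr14:66344296-66361680 on the plus strand.

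Gap43, the calmodulin-binding membrane protein used as a marker of growing axons, was at 2215 TPM in pup 1 and 2400 TPM in pup 3. Its mean was 2308 ± 131 (SD, n = 2), rank 39 among mouse genes. The count ratio of pup 1 over pup 3 was 0.822 (0.813 to 0.832). It (ENSMUSG00000047261.9) lies at chr16:42248442-42340651 on the minus strand, and ENSMUST00000102817.4 took 100% of it in pup 1 and 99.96% in pup 3. Gap43 and Stmn2 were level in mean, and their order turned between pups, with a log2 ratio of Stmn2 over Gap43 of -0.11 in pup 1 and 0.10 in pup 3.

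Basp1, also called CAP-23, was the lowest of the 10 in mean. It was at 159 TPM in pup 1 and 114 TPM in pup 3, a mean of 136 ± 31.7 (SD, n = 2), with a count ratio of pup 1 over pup 3 of 1.24 (1.19 to 1.29). Gap43 exceeded Basp1 by a log2 TPM ratio of 3.80 in pup 1 and 4.40 in pup 3. Basp1 (ENSMUSG00000045763.7) lies at chr15:25363277-25413764 on the minus strand. In an alignment of the coding bases of Gap43 and Basp1, 49.9% of columns, gaps included, were identical. The share between unrelated sequences was not measured, so this value does not show kinship. The coding sequences of Basp1 and Marcks were rich in G and C, at 74.2% and 75.4%, against at most 62.7% in the other 8 members.

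Marcks, the protein kinase C substrate that binds phosphoinositides, was at 119 TPM in pup 1 and 341 TPM in pup 3. Its mean was 230 ± 157 (SD, n = 2), from 7655 counts in pup 1 and 30652 in pup 3. The ratio of pup 1 over pup 3 was 0.311 (0.303 to 0.319), or 3.22-fold higher in pup 3 with the ratio inverted (3.14 to 3.30). It was the only member over 2-fold higher in pup 3. Marcks (ENSMUSG00000069662.5) lies at chr10:37133375-37138920 on the minus strand and Marcksl1 (ENSMUSG00000047945.6) at chr4:129513581-129515985 on the plus strand. The markers of radial glia and astrocytes went both ways, with 2 over 2-fold higher in pup 1, Slc1a3 and Aqp4, and 1 in pup 3, Sox2, and their summed level was higher in pup 3 with Fabp7 and higher in pup 1 without it. Those of cycling cells (2 of 8 detected in both, Mcm2 and Birc5 at 0) summed to 82.6 TPM in pup 1 and 226 TPM in pup 3. They too went both ways, with Top2a and Cdk1 over 2-fold higher in pup 1 and Ccnb1, Pcna and Mcm5 in pup 3. Their part in the Marcks difference was not tested.

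Marcksl1, the smaller relative of Marcks, was at 279 TPM in pup 1 and 426 TPM in pup 3, a mean of 352 ± 103 (SD, n = 2). Its count ratio of pup 1 over pup 3 was 0.584 (0.568 to 0.602), in the same direction as Marcks and short of 2-fold. Marcksl1 exceeded Marcks per length in each pup, by a log2 TPM ratio of 1.23 in pup 1 and 0.32 in pup 3. In raw counts the order was the other way, since the Marcks transcript has 4048 bases and that of Marcksl1 1605. Related rows took few counts. Akr1c19, 91.2% identical to Marcksl1 over 1061 bases of a transcript, had 60 counts in pup 1 and 0 in pup 3, the pseudogene Gm9089 had 2 and 1, and Marcksl1-ps4 had 0 in both.

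Of the summed TPM of Gap43, Basp1, Marcks and Marcksl1, Gap43 took 79.9% in pup 1 and 73.2% in pup 3. Marcks took 4.29% in pup 1 and 10.4% in pup 3. Marcksl1 took 10.1% and 13.0%, and Basp1 5.73% and 3.47%. Gap43 was thus the main transcript of the group in each pup, and the order below it differed between pups for Marcks and Basp1.

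Crmp1 was at 446 TPM in pup 1 and 328 TPM in pup 3, a mean of 387 ± 83.3 (SD, n = 2). Its count ratio of pup 1 over pup 3 was 1.21 (1.19 to 1.23). The gene (ENSMUSG00000029121.11) lies at chr5:37241940-37292133 on the plus strand. ENSMUST00000031004.7, which begins at the downstream of the 2 starts shown above, took 99.94% of the gene in pup 1 and 99.95% in pup 3. ENSMUST00000114158.4, which begins near the upstream start, at 37242080, took 0.06% in pup 1 and 0.05% in pup 3, or 12.7 and 9.96 counts. Both windows held GGGCGG matches and more CG than the median window. Evc, a gene on the opposite strand that overlaps the end of Crmp1, had 0 counts in both pups, as had the microRNA rows Gm23634 within Stmn1 and Mir6540 within Gap43.

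Dpysl3, also called CRMP4, was at 1023 TPM in pup 1 and 1048 TPM in pup 3, a mean of 1035 ± 17.2 (SD, n = 2), the smallest spread of the 10. It (ENSMUSG00000024501.15) lies on the minus strand of chromosome 18 and ranked 104 among mouse genes. In counts, pup 1 stood at 0.657 of pup 3 (0.650 to 0.665), from 40525 and 76724 counts. The TPM ratio was 0.977. The deposited effective length, by which counts are divided to give TPM, was 2430 bases in pup 1 and 3216 bases in pup 3, and it depends on the transcripts assigned to the gene.

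Those transcripts differed more between pups than in any other member. The leading one by percent of abundance, ENSMUST00000025379.9 (2106 bases), took 59.28% in pup 1 and 64.10% in pup 3. The longest, ENSMUST00000121805.3 (5484 bases), took 13.49% in pup 1 and 35.81% in pup 3. ENSMUST00000118043.3 (1986 bases) took 27.23% in pup 1 and was listed at 0 in pup 3. The 3 differ at both annotated ends. In expected counts the longest led in pup 3, with 46014 counts against 30696 for ENSMUST00000025379.9, while in pup 1 ENSMUST00000025379.9 led with 19841 against 12117.

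**Figure D2:**
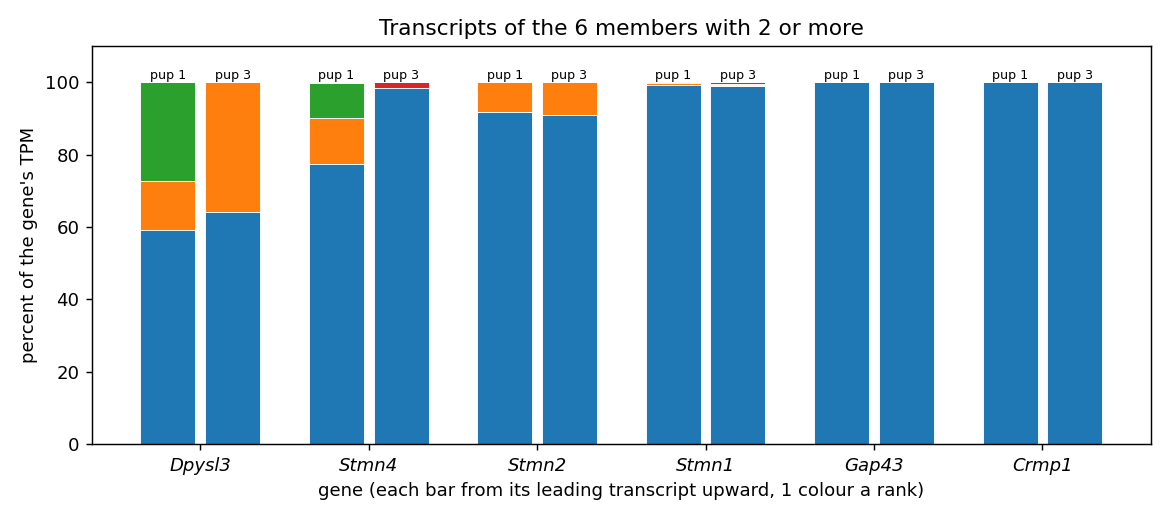
Percent of each gene's TPM on its transcripts in pup 1 (left bar) and pup 3 (right bar) for the 6 members with 2 or more transcripts, the leading transcript at the bottom. Dpysl3 and Stmn4 have split bars that differ between pups, with shifts of 27.2 and 22.5 percentage points, and the bars of Stmn2, Stmn1, Gap43 and Crmp1 are alike.

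Stmn4 was the other member whose transcripts moved. ENSMUST00000074523.8 took 77.48% in pup 1 and 98.43% in pup 3. ENSMUST00000120229.3 and ENSMUST00000118426.3 took 12.66% and 9.62% in pup 1, and both were listed at 0 in pup 3, where the gene had 1099 counts. Their deposited intervals in pup 1 were wide, at 20.5 to 42.6 TPM and 11.5 to 33.7 TPM. By posterior means the shift was smaller. These 2 then took 10.35% and 7.69% in pup 1 and 0.71% and 1.6% in pup 3, and ENSMUST00000074523.8 took 78.12% and 93.38%. In Stmn2, by contrast, ENSMUST00000029002.8 took 91.72% in pup 1 and 90.97% in pup 3. The short noncoding ENSMUST00000194307.1, of 308 bases at the gene's last part, took 8.21% and 8.97%. Stmn3, Basp1, Marcks and Marcksl1 have 1 transcript each.

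All 6 members with several transcripts had the same leading transcript in both pups by percent. The same held for 62.8% of 5311 genes with 2 or more transcripts and 50 counts in each library. Within the members' range of mean TPM it held for 84.7% of 888 genes, which is the closer background for 6 of 6.

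Set in order of mean TPM, the 10 genes ran Stmn1, Stmn2, Gap43, Stmn3, Dpysl3, Crmp1, Marcksl1, Marcks, Stmn4 and Basp1. Neighbours were taken to differ where their deposited 95% TPM intervals did not overlap and the order was the same in each library. By that rule 5 of the 9 neighbouring pairs differed, namely Stmn1 over Stmn2, Gap43 over Stmn3, Stmn3 over Dpysl3, Dpysl3 over Crmp1 and Marcksl1 over Marcks. The last of these had a gap of 123 TPM in mean, under its pooled SD of 133 TPM. Stmn2 and Gap43, Crmp1 and Marcksl1, Marcks and Stmn4, and Stmn4 and Basp1 changed places between pups. The deposited intervals belong to the posterior mean of TPM, so the TPM itself can lie outside them. For Stmn1 in pup 1 the interval was 5145 to 5217 TPM and the TPM 5358.

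Between the pups, 2 of the 10 members were over 2-fold apart, Stmn4 higher in pup 1 and Marcks higher in pup 3. Over all genes with a count, 55.2% passed this rule, with 29.2% of genes higher in pup 1 and 26.0% in pup 3. In the members' range of mean TPM, 22.8% of 1215 genes did, with 6.34% higher in pup 1 and 16.5% in pup 3. The members' count, 2 of 10, is near this second background. By TPM, 3 members were higher in pup 1 and 7 in pup 3, against 543 and 672 of the 1215 genes. The median absolute log2 ratio of TPM + 1 was 0.38 over the members and 0.54 over the genes in their range. The median log2 count ratio of pup 1 over pup 3 was -0.43 over the members, -0.26 over the genes in their range and -0.20 over the 9288 genes counted in both libraries.

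**Figure D3:**
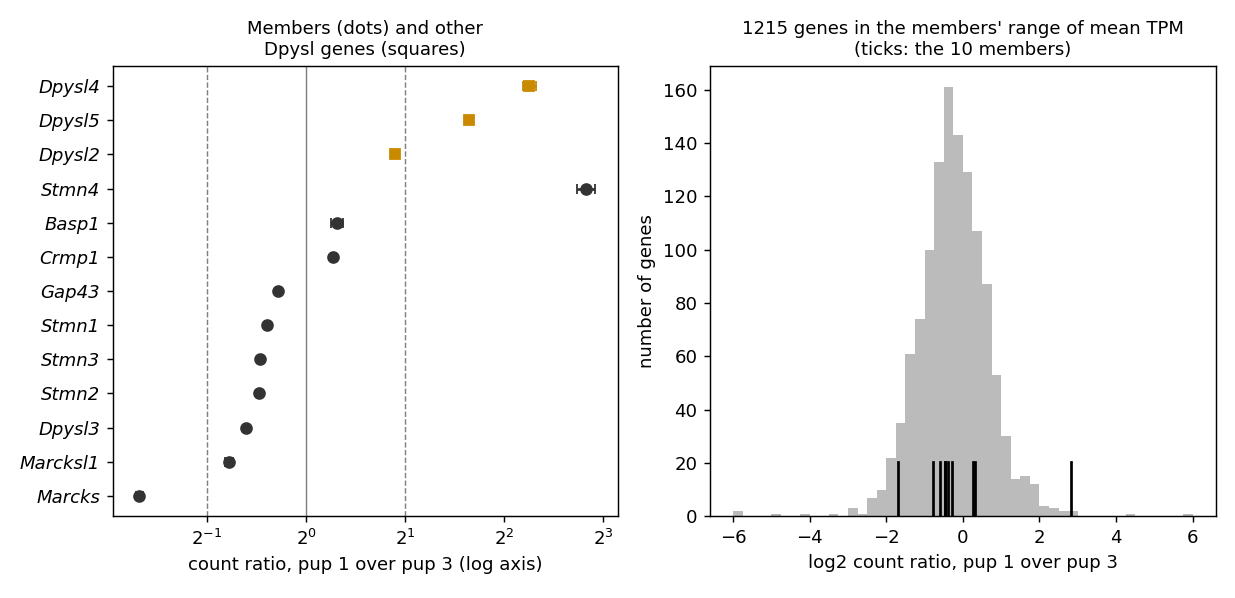
Left, the count ratio of pup 1 over pup 3 (log axis) with exact 95% intervals for the 10 members (dots) and 3 other Dpysl genes (squares), dashed lines at 2-fold; right, the log2 count ratio of 1215 genes in the members' range of mean TPM, with values beyond the axis placed at its ends and the members as ticks. Stmn4 and Marcks lie beyond the dashed lines on opposite sides, and the other 8 members lie between them.

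The 3 other collapsin response mediators were higher in pup 1, and 2 of them were over 2-fold higher. Dpysl2, or CRMP2, which promotes axon formation by carrying tubulin, was at 2358 TPM in pup 1 and 1124 TPM in pup 3, a count ratio of 1.87 (1.85 to 1.88). Dpysl5 was at 214 TPM in pup 1 and 61.5 TPM in pup 3, a count ratio of 3.12 (3.04 to 3.21). Dpysl4 was at 208 TPM in pup 1 and 40.0 TPM in pup 3, a count ratio of 4.78 (4.57 to 5.00). Their order by TPM with the 2 members was the same in each pup, Dpysl2, Dpysl3, Crmp1, Dpysl5 and Dpysl4. The share of Dpysl3 in the summed TPM of the 5 genes was 24.1% in pup 1 and 40.3% in pup 3, and that of Dpysl2 was 55.5% and 43.2%.

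Lists of genes known to act with the members held 77 genes in all, and 34 of them (44.2%) were over 2-fold apart, with 16 above in pup 1 and 18 in pup 3, against 55.2% of all genes with a count. The counts over 2-fold apart in each list stand against that same share. Of the 20 whose mean TPM lay in the members' range, 4 were, a share near the 22.8% of all genes in that range. These were Dpysl5, Ncam1 and Nefl, higher in pup 1, and Pcp4, higher in pup 3. Genes named below outside the 3 highest of a list, Ncam1 included, were named after their values were seen unless they passed 4-fold at a mean TPM of 20 or more.

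Of 11 kinases and kinase partners that act on stathmins, 10 were detected in both pups. Prkacb, a catalytic subunit of protein kinase A, was the highest, at 264 TPM in pup 1 and 162 TPM in pup 3. The p21-activated kinase Pak1 was at 139 TPM in pup 1 and 73.1 TPM in pup 3, and Mapk10, a JNK kinase of neurons, at 107 and 93.9 TPM. Over 2-fold higher in pup 1 were Cdk1, Cdk5r1, Camk4 and Prkaca, and Mapk9 was so in pup 3. Cdk1, the mitotic kinase, was at 44.9 TPM in pup 1 and 0.84 TPM in pup 3, a count ratio of 21.3 (14.8 to 31.9). The median log2 count ratio of this list was 0.91.

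Protein kinase C as a family phosphorylates Gap43, Marcks and Marcksl1, and which isoforms do so here was not tested. Of 6 isoforms, 4 were detected in both pups. Prkcz was at 164 TPM in pup 1 and 187 TPM in pup 3, and Prkcb at 35.8 and 115 TPM. Prkcb, Prkca and Prkcd were over 2-fold higher in pup 3. The calmodulin gene Calm2 was far above these kinases, at 2435 TPM in pup 1 and 3707 TPM in pup 3. It was above Gap43, which binds calmodulin, in each pup. Of the 5 genes of this list, all were detected in both pups, and Pcp4 and Nrgn, small calmodulin-binding proteins, were over 2-fold higher in pup 3, Pcp4 at 380 TPM in pup 1 and 893 TPM in pup 3.

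Of 12 genes of the semaphorin 3A receptor and of kinases that act on collapsin response mediators, 7 were detected in both pups. Gsk3b, which phosphorylates several mediators, was at 163 TPM in pup 1 and 115 TPM in pup 3. The adhesion molecule L1cam was at 136 TPM in pup 1 and 118 TPM in pup 3, and Cdk5, the priming kinase, at 37.3 and 57.3 TPM. Sema3a, the ligand, had 0 counts in pup 1 and was at 41.0 TPM in pup 3. It was 1203-fold higher in pup 3 against an assumed floor of 3 counts in pup 1. The exact interval, with the count of 0 as it was, had its lower end at 978-fold higher in pup 3. The receptor gene Plxna3 was at 40.2 TPM in pup 1 and 0.02 TPM in pup 3, from 1546 and 3 counts, a ratio of 641 (219 to 3114). Over 2-fold higher in pup 1 were also Nrp1 and Fes, and in pup 3 Plxna2, Plxna4, Dyrk2 and Rock2. The median log2 count ratio was -0.04 over the 9 genes counted in both.

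All 16 other growth cone and neurite genes were detected in both pups. Rtn1, a reticulon of the endoplasmic reticulum, was the highest, at 2342 TPM in pup 1 and 3940 TPM in pup 3. The microtubule-associated Mapt was at 866 TPM in pup 1 and 930 TPM in pup 3, and Map1b at 851 and 700.3 TPM. These levels place both between Dpysl3 and Crmp1. Ncam1 and Cntn2 were over 2-fold higher in pup 1 by counts, and Enah, Evl and Gprin1 in pup 3. Cntn2 stood the other way in TPM, at 23.5 TPM in pup 1 and 42.9 TPM in pup 3.

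**Figure D4:**
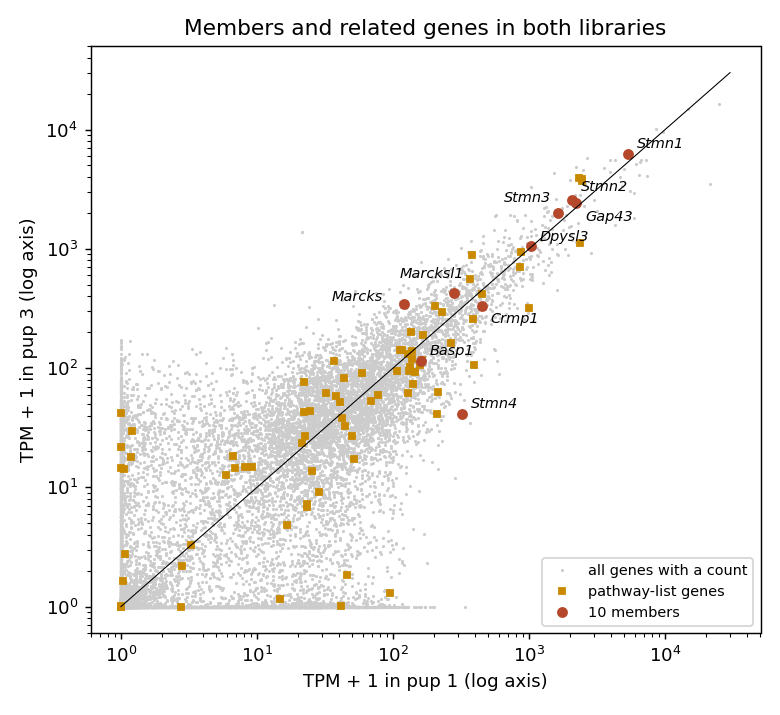
TPM + 1 in pup 1 (x, log axis) and in pup 3 (y, log axis) for all mouse genes with a count (grey), the genes of the lists (squares) and the 10 members (red dots), with the line of equal levels. The other 8 members lie nearer the line, with Stmn4 well below it at 321 TPM in pup 1 and 40.5 TPM in pup 3 and Marcks above it at 119 and 341 TPM.

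Among genes that attach fatty acids to the members or remove them, Lypla2, a depalmitoylating thioesterase, was at 128 TPM in pup 1 and 130.4 TPM in pup 3. Of the 7 palmitoyltransferases and thioesterases, 4 were detected in both pups. Ppt1, a lysosomal thioesterase, was at 93.6 TPM in pup 1 and 0.30 TPM in pup 3, a count ratio of 728 (334 to 1986), and Zdhhc2 was also higher in pup 1. Lypla1, at 21.0 TPM in pup 1 and 75.6 TPM in pup 3, and Zdhhc17 were over 2-fold higher in pup 3. The myristoyltransferases Nmt2, at 57.8 TPM in pup 1 and 90.1 TPM in pup 3, and Nmt1, at 24.4 and 12.7 TPM, were detected in both, and neither was over 2-fold apart in counts. Nmt1 stood the other way in counts, with a ratio of pup 1 over pup 3 of 0.814 (0.744 to 0.891).

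Of 10 genes known from axon regeneration, 6 were detected in both pups, with Npy at 134 TPM in pup 1 and 199.7 TPM in pup 3, Klf7 at 136 and 138 TPM and Sox11 at 133 and 102 TPM. Klf7 and Sox11 encode transcription factors of growing neurons. Sprr1a and Vip were at 0 counts in both pups, and Atf3 and Gadd45a were over 2-fold higher in pup 3. Of 6 genes that rise as axons mature, 5 were detected in both, with Snap25 at 366 TPM in pup 1 and 552 TPM in pup 3 and Syt1 at 76.5 and 58.9 TPM. The neurofilament genes Nefl, at 390 TPM in pup 1 and 105 TPM in pup 3, and Nefh were over 2-fold higher in pup 1. Each of these genes lay below Gap43, Stmn1, Stmn2 and Stmn3 in both pups.

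For each member, the protein-coding gene nearest in log2(TPM + 1) over the 2 libraries was found, which describes level only. Stmn1 was nearest to Ftl1 at a distance of 0.375, and both Stmn2 and Gap43 to Fth1, at 0.156 and 0.234. Stmn3 was nearest to Selenow (0.175), Dpysl3 to Atp5o (0.0887) and Crmp1 to Ier3ip1 (0.0430). Marcksl1 and Sh3bgrl3 were nearly level, at a distance of 0.0168, as were Basp1 and Cltc at 0.0222. Marcks was nearest to Atf2 (0.0925), which was at 126 TPM in pup 1 and 330 TPM in pup 3. Stmn4 was nearest to Dnajc7 (0.336), at 368 TPM in pup 1 and 33.4 TPM in pup 3.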

How the data were processed

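Both libraries were RNA-seq of newborn midbrain RNA, read from gene and transcript tables of 1 library each. Per the deposited readme texts, the tables rest on mm10 and GENCODE M4; no source used here gives the aligner, quantification program or use of strand. The deposited expected counts divide reads that match several features and were rounded for intervals. The deposited TPM values are scaled over mouse genes, tRNA and spike-in rows together. The deposited FPKM, the posterior means and the deposited percent of each gene on its transcripts were also used. Symbols matched 42462 of 43346 gene identifiers. Coordinates and coding sequences come from GENCODE M21 on GRCm38 (mm10), whose transcript versions can differ from M4, and promoters from RefSeq.

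Count ratios of pup 1 over pup 3 were scaled by totals over mouse genes, with exact Clopper-Pearson 95% intervals. A gene was over 2-fold or 4-fold apart where its whole interval lay beyond that size. A floor of 3 counts, which equals 0.115 CPM in pup 1 and 0.0926 CPM in pup 3, was used only for the fold of Sema3a. Intervals and calls used counts of 0 as they were, and medians of ratios left out genes at 0. TMM factors came from edgeR 4.0.16 and size factors from DESeq2 1.42.0 (R 4.3.3), and all else was done in Python 3.11.15 with scipy 1.17.1, pandas 2.3.3, numpy 2.4.6, matplotlib 3.10.9 and biopython 1.88. Related sequences were found with BLAST at 90% identity over 100 bases. Identity was taken on coding bases in place of proteins, since no protein table was used here. It is the percent of identical columns in a global alignment, gaps included, so a difference in length lowers it.

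The members and lists were chosen with earlier results of these data known. Genes named were the members, the 3 highest of each list, list genes past 4-fold at a mean TPM of 20 or more, each member's nearest gene, related or overlapping rows, and member transcripts at 5% or more. Some genes that this rule selects are not reported here. No label says more of the pups' independence than their numbers, so spreads are those between 2 libraries.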

Additional observations from a re-analysis of the deposited data

How the results depend on the processing

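The summed mean TPM of the 10 members, 14580, ranged from 13607 to 15554 when either replicate was left out, was 14180 with posterior means and 15283 with TPM or FPKM rescaled over mouse genes, and moved by more than 1 SD, to 16171, when mitochondrial genes were also left out. The 2-fold and 4-fold counts of members, 2 and 1, were the same with TMM factors, size factors, spike-in totals, posterior mean counts and TPM ratios. The ratios themselves moved. With TMM and size factors, the count ratio of pup 1 over pup 3 rose above its counting interval in all 10 members. That of Gap43 went from 0.822 to 0.938 and 0.944, and that of Basp1 from 1.242 to 1.417 and 1.426. Of the 9 neighbours in level, 9 kept their order with posterior means, 7 without either replicate and 6 in CPM. The pair Marcksl1 over Marcks reversed in expected counts not taken per length, to a mean log2 ratio of -0.61. Leading transcripts were kept in 5 of 6 members by expected counts, Dpysl3 being the exception. List genes detected in both pups numbered 61 at a TPM of 1, 66 at 0.1, 50 at 10 and 64 at 10 counts. The share of genes over 2-fold apart was 22.8% in the members' range, 55.2% with any count and 61.4% at a mean TPM of 1 or more. Ratios between pups cannot be had without either library. No paired analysis was possible because there is only 1 group. Amplification from 13 pg of RNA limits what the counting intervals cover.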
